A study of Mus musculus with 20 samples.

Results

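The Hedgehog pathway genes described here are Ptch1, Smo, Boc, Cdon, Gas1, Gli1, Gli2, Gli3 and Hhip, 9 of the 48795 genes listed in a table of log2-transformed normalized counts from mouse embryonic hearts. They were chosen by name as the receptor, co-receptors, signal transducer, transcription factors and feedback antagonist of the pathway, and their Ensembl identifiers were matched to symbols with GENCODE. All 9 were in the table and all 9 had a mean normalized count of at least 10, the minimum for testing, as did 15304 genes in all. RNA was sequenced from whole hearts at embryonic stage E13.5, from 10 WT, 5 Dp1Tyb and 5 Dp1TybDyrk1a+/+/- embryos. Dp1Tyb mice model Down syndrome by a tandem duplication of the stretch of chromosome 16 from Lipi to Zbtb21. Dp1TybDyrk1a+/+/- mice carry the same duplication with a null allele of Dyrk1a, a kinase gene of the duplicated stretch, on the same chromosome, and so keep a pair of working copies of Dyrk1a. The strain goes back to 1 recombinant animal. All mice were on the C57BL/6J background, and controls were WT littermates. Since no label gives the litter of a WT heart, the duplication genotypes were each compared with the full set of 10 WT hearts.

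Hedgehog ligands are secreted proteins that bind Ptch1, a membrane receptor that holds Smo inactive in their absence. Boc, Cdon and Gas1 bind the ligand together with Ptch1 as co-receptors. Once Smo is released, the Gli proteins act on target genes: Gli2 chiefly as an activator, Gli3 chiefly as a repressor, and Gli1 as an activator that is itself a target. Ptch1 and Hhip, a membrane protein that binds and sequesters the ligand, are targets too and damp the signal, so the levels of Gli1, Ptch1 and Hhip are commonly read as the output of the pathway. In the embryo, Shh made by the lung and foregut epithelium signals to the mesenchyme around it, including second heart field cells that form the dorsal mesenchymal protrusion, a tissue of the atrial and atrioventricular septum.

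None of the 9 genes lies in the duplicated stretch. Boc is on the same chromosome, at chr16:44485045-44558870 of GRCm38.p6, before the start of Lipi at 75540514, and so has a normal copy number in all 3 genotypes. Gli3, Gas1 and Ptch1 are on chromosome 13, Gli2 on chromosome 1, Smo on chromosome 6, Hhip on chromosome 8, Cdon on chromosome 9 and Gli1 on chromosome 10. The sequences just before the starts of Hhip and Gas1 are shown because these genes were the lowest and the highest of the 9 in level per length. They were taken from RefSeq promoter windows on GRCm38.p6 and cut to the bases that precede every RefSeq transcript of the gene. For Hhip these are the 198 bases at chr8:80058061-80058258 and for Gas1 the 250 bases at chr13:60177536-60177785, both on the minus strand and written 5′ to 3′.
Hhip: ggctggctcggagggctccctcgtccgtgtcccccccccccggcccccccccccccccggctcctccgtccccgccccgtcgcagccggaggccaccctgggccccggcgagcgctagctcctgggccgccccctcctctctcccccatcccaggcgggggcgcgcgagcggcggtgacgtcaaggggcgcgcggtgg
Gas1: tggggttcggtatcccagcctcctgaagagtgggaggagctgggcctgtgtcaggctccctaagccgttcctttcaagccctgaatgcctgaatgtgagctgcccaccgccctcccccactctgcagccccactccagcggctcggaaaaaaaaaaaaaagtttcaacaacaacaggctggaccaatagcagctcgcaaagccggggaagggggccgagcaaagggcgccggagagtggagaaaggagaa
The Hhip stretch was 82.3% G and C with 24 CpG pairs, and the Gas1 stretch 58.8% with 10, beside a median of 52.4% G and C over all RefSeq windows. The Gli binding motif GACCACCCA was searched on both strands of the 250 bases before each start. It was in 74 of 32851 windows (0.225%) and in none of the windows of the 7 members that had one. Gli1 and Boc had no entry. For Ptch1, Gli2 and Cdon, 0 bases of the window preceded every RefSeq transcript of the gene. Those windows thus do not cover the bases before the first start of the gene. The search says only that these letters are not in these windows.

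Dyrk1a checked the labels in part. On the log2 scale WT hearts had 11.37 ± 0.044 (SD, n = 10), Dp1Tyb hearts 11.69 ± 0.040 (SD, n = 5) and Dp1TybDyrk1a+/+/- hearts 11.76 ± 0.056 (SD, n = 5) of its mRNA, and every heart of both duplication genotypes lay above all WT hearts. The value of a gene counts RNA of the null allele with that of the working copies, so it shows the duplication and not the null allele. The heart markers Tnnt2 and Myh6, genes of the contractile apparatus, had mean log2 values of 15.70 and 15.86. The libraries were run in lanes 3, 6 and 7, with 4, 4 and 2 WT, 2, 2 and 1 Dp1Tyb, and 1, 1 and 3 Dp1TybDyrk1a+/+/- hearts. Sequencing depth is unknown, as only normalized values were used, and precision rests on the spread between hearts. Log2 values of weakly expressed genes lie close together in this table, and no source used here names the transformation behind them. Normalized counts, counts per kilobase and fold ranges are given here as powers of 2 of these values, so those of weakly expressed genes can be drawn toward their mean and their fold changes understated.

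The members were expressed at very different levels. Divided by the length of their merged exons, the mean log2 normalized counts per kilobase over the 20 hearts were 8.69 for Gas1, 8.21 for Cdon, 7.47 for Smo, 7.07 for Boc, 6.69 for Gli3, 6.16 for Ptch1, 5.65 for Gli2, 4.26 for Gli1 and 3.63 for Hhip. In normalized counts per kilobase, Gas1 stood at 414 and Hhip at 12.3. Per kilobase, the co-receptors and Smo were thus above the Gli genes, and Gli1 and Hhip, both read as output, were the lowest. The ranges over hearts of Boc and Gli3, of Ptch1 and Gli2, and of Gli1 and Hhip overlapped, but in each pair the gene named first was the higher in 20 of 20 hearts. The ranges of the other neighbours in this order did not overlap. The order depends on the merged exon lengths. Undivided, the mean log2 value of Cdon (11.43) was above that of Gas1 (10.26), Ptch1 (10.04) and Gli3 (10.01) were above Boc (9.36), and Hhip (7.05) was above Gli1 (6.58).

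**Figure D1:**
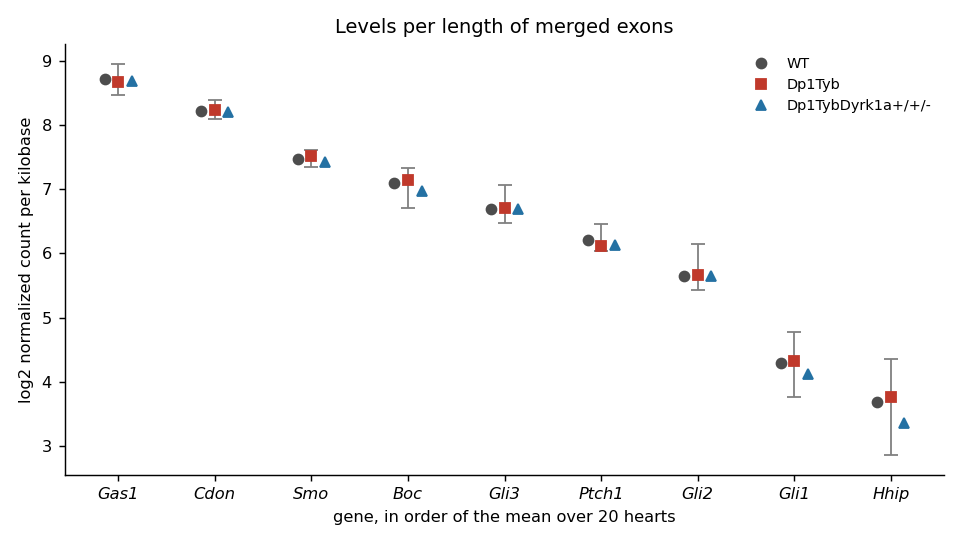
Mean log2 normalized count per kilobase of merged exons for the 9 genes in each genotype (symbols), with grey bars from the lowest to the highest of all 20 hearts. The order runs from Gas1 at 8.69 to Hhip at 3.63, and the genotype means of each gene lie close together beside the differences between genes.

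No Hedgehog pathway gene differed between genotypes past the threshold. Of the 9 members, 0 were called in Dp1Tyb compared to WT hearts, where 3.08% of all tested genes were called (limma, Benjamini-Hochberg adjusted P-value under 0.05 over 15304 genes). In Dp1TybDyrk1a+/+/- compared to WT hearts 0 of 9 were called, beside 0.712% of all tested genes, and between Dp1Tyb and Dp1TybDyrk1a+/+/- hearts 0 of 9, beside 1.16%. With shares this small over all genes, a count of 0 among 9 does not set the members apart. The shares over all genes also include the duplicated genes, to which no member belongs. Of the 471 genes called in Dp1Tyb compared to WT hearts 277 were higher, and of the 109 in Dp1TybDyrk1a+/+/- compared to WT hearts 96 were. A share over the genes outside the duplicated stretch is not given here. In each comparison 0 of 9 had an unadjusted P-value under 0.05, beside 15.6%, 9.64% and 18.5% of all tested genes. These counts rested on 1 library. Without library 15, a Dp1TybDyrk1a+/+/- heart, 1, 7 and 5 of 9 members had an unadjusted P-value under 0.05, beside 20.4%, 12.7% and 17.9% of all tested genes, and 0 of 9 were called in each comparison, beside 6.27%, 0.908% and 1.31%. With quality weights per heart, 1, 9 and 7 of 9 did, beside 24%, 18.5% and 25.3%, and 0, 0 and 1 were called, beside 9.29%, 2.23% and 8.15%. As the members varied together between hearts, these are not separate observations. The smallest adjusted P-values of a member were 0.394, 0.666 and 0.337 in the same order. The comparisons with WT share all WT hearts, and their values are given side by side.

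**Figure D2:**
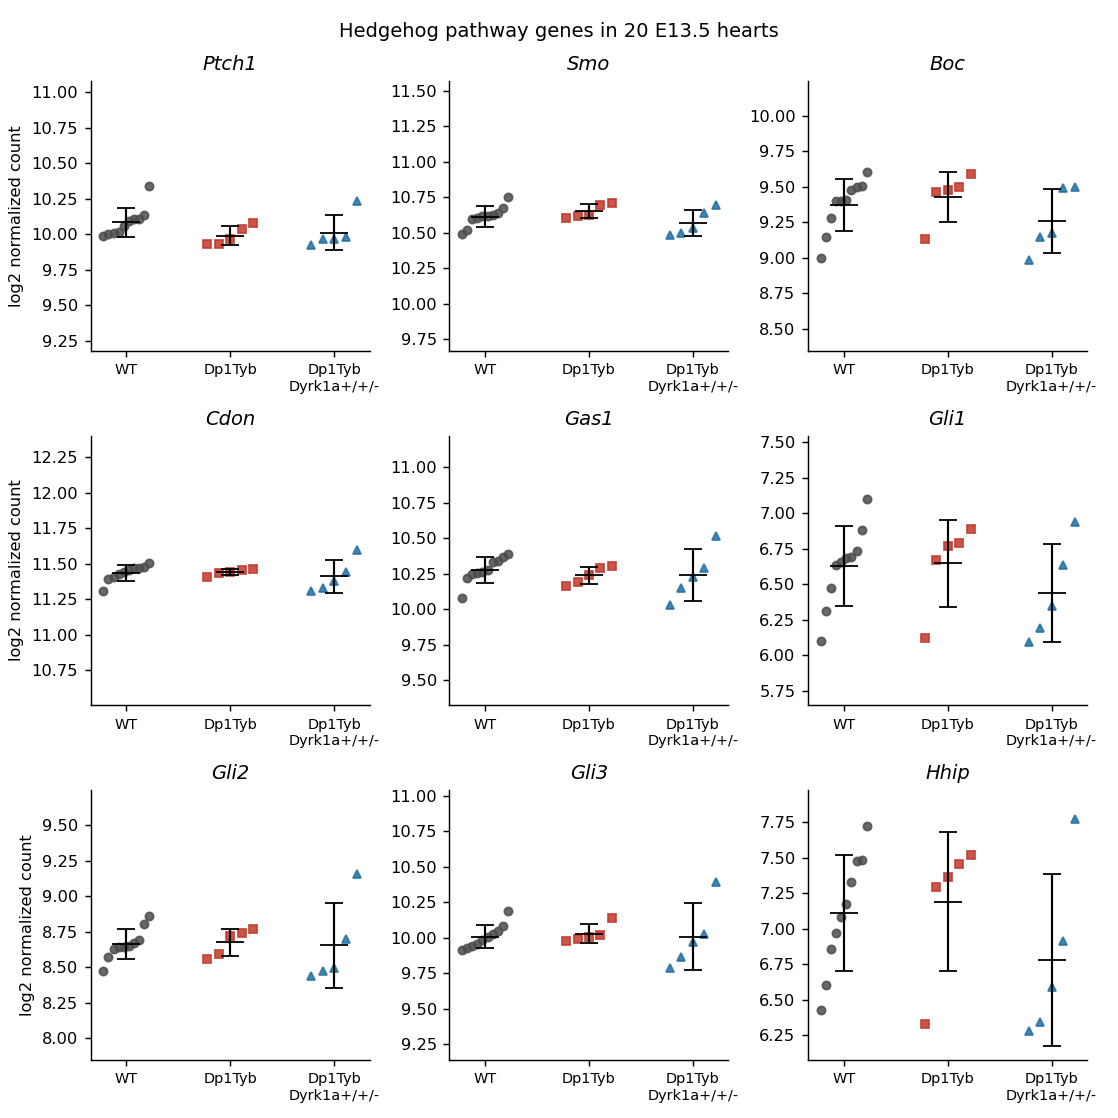
Log2 normalized count of each of the 9 genes in each heart, by genotype and sorted by value within a genotype, with the mean and SD in black. Each panel spans the same number of log2 units. The genotypes overlap for every gene, and the spread between hearts is largest for Hhip and Gli1.

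Ptch1, the receptor, had the lowest value of the members relative to WT in Dp1Tyb hearts. The 5 Dp1Tyb hearts were at 9.93, 9.93, 9.97, 10.04 and 10.08 on the log2 scale, and the 5 Dp1TybDyrk1a+/+/- hearts at 9.92, 9.96, 9.97, 9.98 and 10.23. The WT hearts ran from 9.99 over a median of 10.07 to 10.34. Thus 3 of 5 Dp1Tyb and 4 of 5 Dp1TybDyrk1a+/+/- hearts lay below all WT hearts, and the others lay among them. The difference of Dp1Tyb from WT was -0.096 on the log2 scale (95% CI -0.204 to 0.012, limma adjusted P-value 0.394), and within lanes 3, 6 and 7 it was -0.105, -0.096 and -0.079. That of Dp1TybDyrk1a+/+/- from WT was -0.074 (95% CI -0.182 to 0.034, limma adjusted P-value 0.666), with -0.132, -0.134 and 0.029 within the lanes. The latter was -0.129 without library 15 and -0.046 without library 19, a WT heart.

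Smo is the transducer that Ptch1 holds in check. Its log2 values ran from 10.60 to 10.71 in Dp1Tyb, from 10.48 to 10.70 in Dp1TybDyrk1a+/+/- and from 10.49 to 10.75 in WT hearts. Dp1Tyb hearts differed from Dp1TybDyrk1a+/+/- hearts by 0.081 (95% CI -0.012 to 0.174, limma adjusted P-value 0.337), with 1 of 5 Dp1Tyb hearts higher than every Dp1TybDyrk1a+/+/- heart. Among the co-receptors, Cdon varied least. The 5 Dp1Tyb hearts stood between 11.41 and 11.46 for Cdon, within the range of WT hearts from 11.31 to 11.51, and the difference was 0.0055 (95% CI -0.073 to 0.084). For Gas1 the Dp1Tyb hearts stood between 10.17 and 10.30 and the WT hearts between 10.08 and 10.39, a difference of -0.039 (95% CI -0.159 to 0.081). The groups overlapped for both genes.

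Boc was the most variable of the co-receptors. Its log2 values were 9.13, 9.46, 9.47, 9.50 and 9.59 in Dp1Tyb hearts and 8.98, 9.14, 9.17, 9.49 and 9.50 in Dp1TybDyrk1a+/+/- hearts, and ran from 8.99 over a median of 9.40 to 9.605 in WT hearts. In Dp1Tyb 1 heart was low and in Dp1TybDyrk1a+/+/- 3 hearts were, and WT hearts covered nearly the whole range. Dp1Tyb and Dp1TybDyrk1a+/+/- hearts differed by 0.172 (95% CI -0.060 to 0.404, limma adjusted P-value 0.413), and by -0.133, 0.341 and 0.244 within lanes 3, 6 and 7. The difference was 0.103 without library 18 and 0.247 without library 7. From WT, Dp1TybDyrk1a+/+/- hearts differed by -0.113, and by -0.173 without library 15 and -0.044 without library 18.

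Gli1, the factor that is also a target, gave 6.12, 6.67, 6.77, 6.79 and 6.89 in Dp1Tyb hearts and 6.09, 6.19, 6.34, 6.63 and 6.94 in Dp1TybDyrk1a+/+/- hearts on the log2 scale. In WT hearts it ran from 6.10 over a median of 6.67 to 7.10, which covered all but 1 of the duplication hearts. The highest heart of all had 2.01 times the lowest. Dp1Tyb differed from WT by 0.019 (95% CI -0.294 to 0.332), and Dp1TybDyrk1a+/+/- from WT by -0.187 (95% CI -0.499 to 0.126, limma adjusted P-value 0.705), which within lanes was -0.012, -0.389 and 0.030. The latter was -0.311 without library 15 and -0.100 without library 18. For Gli2 the differences from WT were 0.011 in Dp1Tyb and -0.011 in Dp1TybDyrk1a+/+/- hearts, and for Gli3 0.020 and -0.0002. A single Dp1TybDyrk1a+/+/- heart, library 15, stood at 9.16 for Gli2 and 10.39 for Gli3, above every other heart, and without it these differences were -0.137 and -0.096. Both Gli2 and Gli3 overlapped between all genotypes.

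Hhip, the feedback antagonist, had the widest spread and the largest differences. The Dp1Tyb hearts were at 6.33, 7.29, 7.36, 7.46 and 7.52 and the Dp1TybDyrk1a+/+/- hearts at 6.28, 6.35, 6.59, 6.91 and 7.77 on the log2 scale, and the WT hearts ran from 6.43 over a median of 7.13 to 7.72. Low and high hearts occurred in all 3 genotypes, and the whole range was 2.82-fold. Dp1TybDyrk1a+/+/- hearts differed from WT by -0.333 (95% CI -0.830 to 0.165, limma adjusted P-value 0.673) and Dp1Tyb from Dp1TybDyrk1a+/+/- by 0.411 (95% CI -0.163 to 0.986, limma adjusted P-value 0.428). Within lanes 3, 6 and 7 the latter was -0.022, 0.855 and 0.491, and the former -0.215, -0.689 and 0.045. Without library 15, they were 0.660 and -0.581, with neither limma adjusted P-value past the threshold. With quality weights per heart, Hhip was called between Dp1Tyb and Dp1TybDyrk1a+/+/- hearts, at 0.743 (limma adjusted P-value 0.035), the only call of a member under any alternative.

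By direction, 7 of 9 members were above 0 and 2 below in Dp1Tyb compared to WT hearts, with a median of 0.019 beside -0.0019 over all tested genes. In Dp1TybDyrk1a+/+/- compared to WT hearts all 9 were below 0, with a median of -0.044 beside -0.0030, and Gli3 turned above 0, to 0.0071, when each heart was centred on its median. Without library 15 this median was -0.129 and with weights per heart -0.122, with all 9 below 0 in both, and with the lung and foregut marker level as a covariate, described below, it was 0.037, with 7 of 9 above 0. The 9 signs are not separate observations either. The intervals were widest for Hhip and Gli1. With all 20 hearts, the intervals for Cdon in the comparisons with WT lay within 0.101 of 0. Its difference of Dp1TybDyrk1a+/+/- from WT was -0.023 with all hearts and -0.070 without library 15.

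The spread between hearts of the same genotype was itself large for some members. The SD of the residuals from the genotype means was 0.482 for Hhip, rank 38 of 15304 tested genes from the top, 0.303 for Gli1, rank 111, and 0.193 for Boc, rank 375, beside a median of 0.059 over all tested genes. It was 0.172 for Gli2, 0.132 for Gli3, 0.114 for Gas1, 0.102 for Ptch1, 0.074 for Smo and 0.071 for Cdon. Thus all 9 lay above the median gene, and the feedback antagonist and the Gli gene that is a target led. Apart from the upper end of Dp1Tyb, each end of a genotype was mostly held by the same heart. Library 15 was the highest Dp1TybDyrk1a+/+/- heart for 9 of 9 members and library 18 the lowest for 7 of 9. Among WT hearts library 19 was the highest for 8 of 9 and library 20 the lowest for 7 of 9, and among Dp1Tyb hearts library 7 was the lowest for 7 of 9. The highest Dp1Tyb heart was library 3 for 4 members, library 4 for 4 and library 12 for 1.

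The members varied together from heart to heart. With the genotype means removed, all 36 pairs of members were positively correlated over the 20 hearts and all 36 passed the threshold (permutation test, 100000 resamples, two-sided, Benjamini-Hochberg adjusted over 36 pairs). Pearson's r ran from 0.594 for Ptch1 and Cdon to 0.965 for Gli1 and Hhip, with a median of 0.783. For Gli1 and Hhip Spearman's rho was 0.935, the permutation P-value of both was 1e-05, the smallest that the resamples can give, and r was 0.9504 without the 2 hearts farthest from the median of Gli1. Within lanes 3, 6 and 7 it was 0.982, 0.808 and 0.977. For Ptch1 and Gli1 r was 0.780 and rho 0.771 (permutation P-values 2e-05 and 0.00023, 4.8e-05 and 0.000411 after adjustment), 0.665 without the 2 farthest hearts, and 0.796, 0.918 and 0.775 within the lanes. Of the 15295 tested genes that are not members, 8.39% correlated with Hhip and 7.05% with Ptch1 as strongly as the least correlated pair of members did, and for the other members the share was between 6.36% and 14.5%. Thus many other genes varied in the same way. Removing lane as well left 36 of 36 pairs past the threshold.

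The members were also set beside 15 lists of cell type markers, which cover tissues of the heart and of its neighbourhood. The mean log2 level of 9 markers of lung and foregut epithelium (Nkx2-1, Sftpc, Epcam, Cdh1, Foxa1, Foxa2, Sox2, Krt18 and Cldn6) followed the members closely. With genotype means removed, its r was 0.977 with Gli1 (Spearman's rho 0.944), 0.966 with Hhip (rho 0.970), 0.905 with Boc (rho 0.859) and 0.862 with Ptch1 (rho 0.862), each with a permutation P-value of 1e-05, 4.69e-05 for r and 6.25e-05 for rho after Benjamini-Hochberg adjustment over 150 relations of genes and lists. Without the 2 hearts farthest from the median of the markers, r was 0.972, 0.975, 0.892 and 0.851. Within lanes 3, 6 and 7 it was 0.983, 0.915 and 0.983 for Gli1, 0.966, 0.876 and 0.997 for Hhip, and 0.893, 0.843 and 0.876 for Ptch1. It was lowest for Cdon, at 0.712. Among 15296 tested genes outside that list Gli1 ranked 3 and Hhip 7 in this correlation, and 4.76% of the tested genes that are neither members nor markers reached the value of Cdon.

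**Figure D3:**
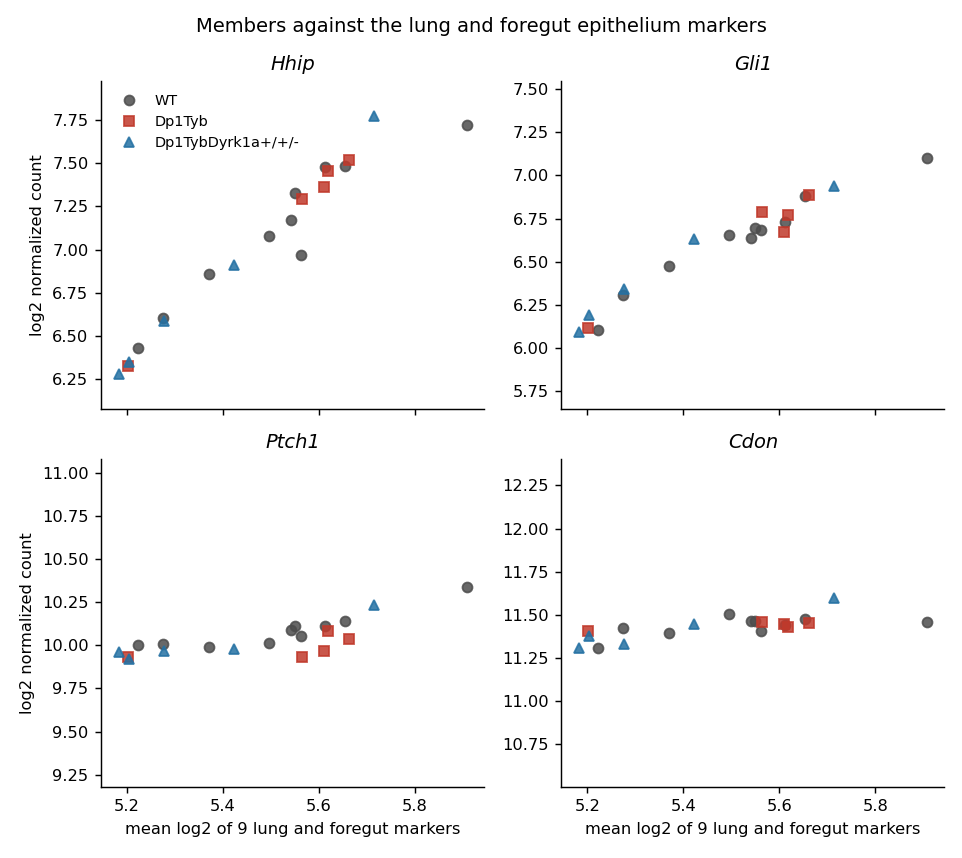
Log2 normalized count of Hhip, Gli1, Ptch1 and Cdon in each heart against the mean log2 value of 9 lung and foregut epithelium markers, by genotype. Hhip and Gli1 climb steeply with the markers in all 3 genotypes, while Ptch1 and Cdon climb by less on the same scale, and hearts of all 3 genotypes occur at low and at high marker levels.

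The markers themselves were low but present, apart from Krt18, which ran from 8.19 to 8.79, and Sftpc, which was under the minimum for testing. Library 15, the Dp1TybDyrk1a+/+/- heart with the highest marker mean, was the lowest of its genotype for Krt18, at 8.24. Cdh1, an epithelial cadherin, ran from 6.03 to 7.59 over the hearts, a 2.94-fold range, and Epcam, an epithelial adhesion molecule, from 5.89 to 7.19, a 2.45-fold range. Nkx2-1, a factor of lung and thyroid epithelium, ran from 4.61 to 5.13, and Sftpc, which marks the distal lung, stood between 1.12 and 1.24 and was not tested. Of the 9 markers 8 were tested. The mean over the list was 5.53 ± 0.188 (SD, n = 5) in Dp1Tyb, from 5.20 to 5.66, 5.52 ± 0.198 (SD, n = 10) in WT, from 5.22 to 5.91, and 5.36 ± 0.219 (SD, n = 5) in Dp1TybDyrk1a+/+/- hearts, from 5.18 to 5.71. Summed over the list, the normalized counts were between 618 and 814, between 620 and 1050, and between 603 and 832. No difference between genotypes in this mean had a P-value under 0.05 (exact permutation tests, two-sided, p = 0.881 for Dp1Tyb against WT, 0.171 for Dp1TybDyrk1a+/+/- against WT and 0.214 between the duplication genotypes). Among Dp1TybDyrk1a+/+/- hearts, library 15 stood at 5.71 and the others between 5.18 and 5.42, so their mean leans on that library. The lowest hearts were library 18, library 7 and library 17, and the highest were library 19 and library 15. In whole hearts, fewer cells of a type and less RNA per cell cannot be told apart.

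Other lists moved with the members too. All 9 members correlated positively past the threshold with cardiac fibroblast and cushion mesenchyme, vascular smooth muscle, neural crest, lung mesenchyme, and second heart field and dorsal mesenchymal protrusion markers. The median r over the members was 0.877 for the fibroblast list, 0.805 for smooth muscle and for lung mesenchyme, 0.785 for neural crest, 0.900 for the second heart field and 0.810 for lung and foregut epithelium. The list with the highest r was lung and foregut epithelium for Gli1, Hhip and Boc, fibroblast and cushion mesenchyme for Smo and Cdon, the second heart field for Gas1 and Gli2, lung mesenchyme for Ptch1 and vascular smooth muscle for Gli3. The second heart field list shares Osr1, Foxf1 and Foxf2, and the lung mesenchyme list Wnt2 and Foxf1, with the reported Hedgehog targets below. With cardiomyocyte markers r was negative for 9 of 9 members, past the threshold for 7, with a median of -0.658. The fibroblast list averaged 12.48 ± 0.060 (SD, n = 5) in Dp1Tyb, 12.38 ± 0.096 (SD, n = 10) in WT and 12.37 ± 0.141 (SD, n = 5) in Dp1TybDyrk1a+/+/- hearts. The cardiomyocyte list averaged 14.71 ± 0.060, 14.75 ± 0.094 and 14.81 ± 0.049 (SD) in the same order. Differences between genotypes in these 2 means were not tested. Differences between these correlations were not tested, and the part of each tissue in the members' levels was not tested.

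**Figure D4:**
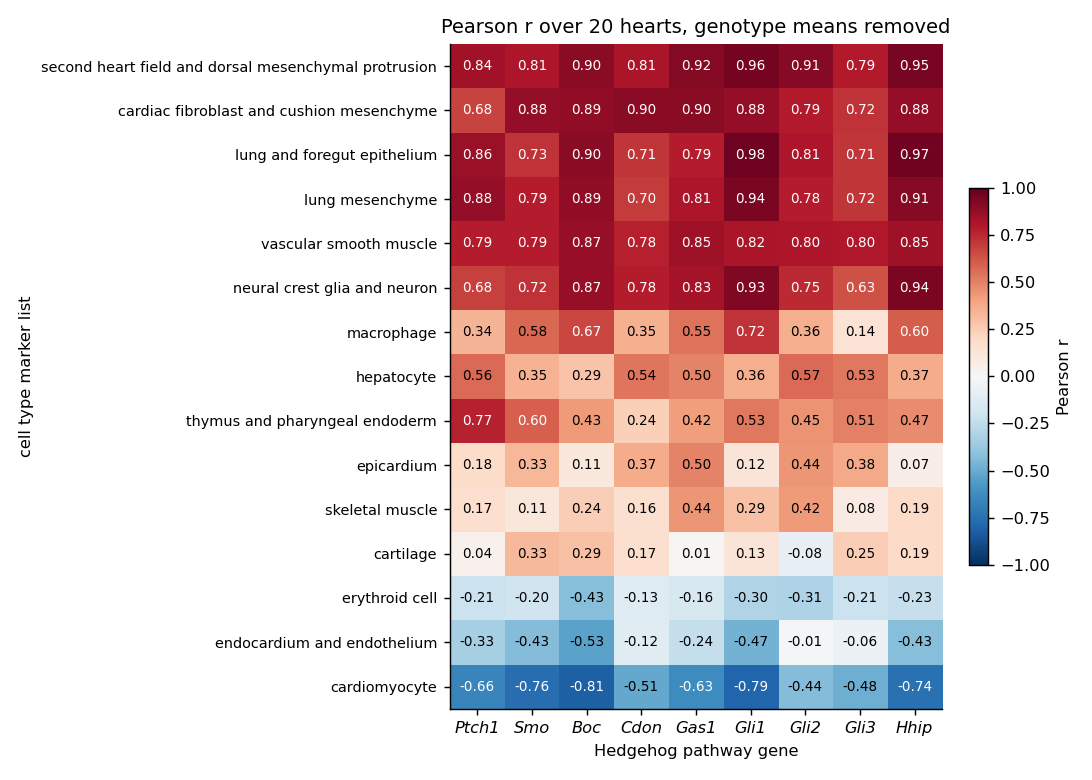
Pearson's r over 20 hearts, with genotype means removed, between each of the 9 genes (columns) and the mean log2 level of each of 15 marker lists (rows, by their median r). The 6 upper lists are positive for every gene, from 0.63 to 0.98, and the cardiomyocyte list is negative for every gene.

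The genotype comparisons were repeated with the lung and foregut marker level of each heart as a covariate, an alternative chosen after the data were seen. The residual SD was then 0.067 for Gli1 and 0.128 for Hhip, with 4.95% and 7.04% of the residual variance left, and 0.051 for Cdon, with 52.4% left. These shares follow from the correlations with the marker level given above and add no separate result. For Hhip the difference of Dp1TybDyrk1a+/+/- from WT was 0.037 in place of -0.333, and that between the duplication genotypes 0.013 in place of 0.411. For Gli1 they were 0.048 in place of -0.187 and -0.047 in place of 0.206. Gli2 moved away from 0, to 0.100 in place of -0.011 and to -0.098 in place of 0.022. Gli3 did as well, to 0.075 in place of -0.0002 and to -0.061 in place of 0.020. Gas1 between the duplication genotypes was -0.081 in place of -0.0048 (limma adjusted P-value 0.266). Ptch1 moved little in Dp1Tyb compared to WT hearts, at -0.102 (95% CI -0.162 to -0.041, unadjusted P-value 0.00221, limma adjusted P-value 0.0504), just outside the threshold, while in Dp1TybDyrk1a+/+/- compared to WT hearts it was -0.0045 (95% CI -0.069 to 0.060). Between Dp1Tyb and Dp1TybDyrk1a+/+/- hearts it was -0.097 (95% CI -0.171 to -0.024, limma adjusted P-value 0.105). As in the fit without the covariate, 0 of 9 members were called in each of the 3 comparisons, beside 4.34%, 0.869% and 3.64% of all tested genes. Of the 36 pairs of members, 8 remained positive past the threshold after removal of the markers, with a median r of 0.366, and Ptch1 and Gli1 became negative (r = -0.564).

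**Figure D5:**
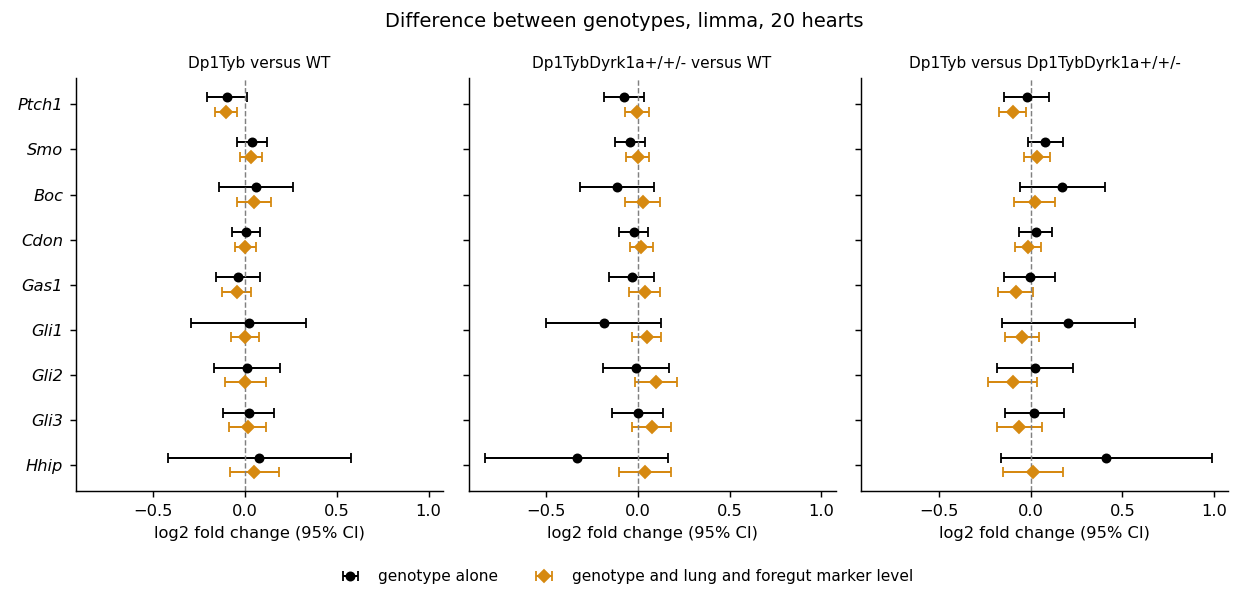
Log2 fold change of each of the 9 genes with its 95% CI in the 3 comparisons, from the fit of genotype alone (black circles) and with the lung and foregut marker level as a covariate (orange diamonds). The intervals of Hhip and Gli1 narrow most with the covariate and their centres move to near 0, while Ptch1 in Dp1Tyb compared to WT stays at about -0.10. Gli2 and Gli3 move away from 0 in both comparisons that involve Dp1TybDyrk1a+/+/- hearts.

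By the same measure, the tested genes outside the members most like Hhip were Emilin3, Foxa2, Mylk, Foxa1 and Cdh1, with r from 0.975 to 0.963 over 20 hearts with genotype means removed. Those most like Gli1 were Stra6, St6gal2, Emilin3, S1pr3 and St14, from 0.974 to 0.965. For Ptch1 they were Crabp2, Eya2, Trim29, Pitx1 and Shh, from 0.926 to 0.920. Foxa1, Foxa2 and Cdh1 are among the lung and foregut markers, and these genes share the libraries and their normalization with the members.

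Of the 3 ligands, Shh and Dhh passed the minimum for testing. Shh, whose mRNA came out among the genes most like Ptch1, had log2 normalized counts of 4.31 to 4.61 in Dp1Tyb, 4.30 to 4.73 in Dp1TybDyrk1a+/+/- and 4.33 to 4.76 in WT hearts. Its differences from WT were 0.0076 (95% CI -0.141 to 0.156) and -0.087 (95% CI -0.235 to 0.062), and its r with the lung and foregut markers was 0.9501 (Spearman's rho 0.949, permutation P-values 1e-05, adjusted 4.69e-05 and 6.25e-05). Dhh, a ligand known from endothelium and Schwann cells, averaged 5.89 ± 0.049 (SD, n = 10) in WT, 5.97 ± 0.027 (SD, n = 5) in Dp1Tyb and 5.95 ± 0.028 in Dp1TybDyrk1a+/+/- hearts (SD, n = 5). Dp1Tyb differed from WT by 0.081 (95% CI 0.031 to 0.130, limma adjusted P-value 0.0741), with 3 of 5 Dp1Tyb hearts higher than every WT heart. Dp1TybDyrk1a+/+/- differed from WT by 0.054 (95% CI 0.0047 to 0.104, limma adjusted P-value 0.471), also with 3 of 5 hearts higher than every WT heart. Neither difference passed the threshold. Ihh stood at 0.353 to 0.390 in all hearts, under the minimum. Sufu, which binds and restrains the Gli proteins, differed from WT by 0.044 in Dp1Tyb (limma adjusted P-value 0.585) and by -0.040 in Dp1TybDyrk1a+/+/- hearts.

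A wider list held 92 other genes of the pathway, of which 89 were tested. In Dp1Tyb compared to WT hearts 2 of 89 were called, beside the 3.08% of all genes. These were Dyrk1a and Dyrk1b. Dyrk1a, which lies in the duplicated stretch and was used above to check the labels, rose by 0.322 (95% CI 0.266 to 0.377, limma adjusted P-value 6.22e-08). Dyrk1b, a related kinase also known to act on Gli proteins, fell by 0.137 (95% CI -0.200 to -0.075, limma adjusted P-value 0.0125). Dyrk1b stood between 8.21 and 8.29 in the 5 Dp1Tyb hearts, below all 10 WT hearts, which ran from 8.31 to 8.45. In Dp1TybDyrk1a+/+/- hearts, from 8.29 to 8.46, it differed from WT by -0.016 (95% CI -0.079 to 0.047), and the difference between the duplication genotypes was -0.121 (limma adjusted P-value 0.0824). In Dp1TybDyrk1a+/+/- compared to WT hearts only Dyrk1a was called among the 89 genes, beside 0.712% of all genes, at 0.395 (95% CI 0.339 to 0.451, limma adjusted P-value 2.18e-09). That value counts RNA of the null allele too. Between the duplication genotypes 0 of 89 were called, beside 1.16% of all genes, and 8 of 89 when hearts were weighted by quality, beside 8.15%.

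By role, 0 of 33 genes of ciliary transport and structure, on which the mammalian pathway depends, were called in any comparison, beside the 3.08%, 0.712% and 1.16% of all tested genes. In Dp1Tyb compared to WT hearts 21 of 33 were below 0, beside 51.5% of all tested genes, and in Dp1TybDyrk1a+/+/- compared to WT hearts 25 of 33, beside 52.6%, with medians of -0.013 and -0.018. All of these signs come from the same hearts and are not separate observations, and a lean of the list was not tested. Of the 14 reported targets 13 were tested and 0 called, with medians of 0.0048 and -0.050 in the comparisons with WT. None of the 13 negative regulators between Smo and Gli was called in that fit, though Mgrn1 and Arrdc3 were between the duplication genotypes with the covariate. Nor was any of the 7 genes of ligand processing and release or the 4 tested other receptors called in that fit. Counts of 0 in lists this short do not set them apart from all genes. Over all 89 genes the median was -0.0012 in Dp1Tyb and -0.012 in Dp1TybDyrk1a+/+/- compared to WT hearts.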

How the data were processed

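The authors deposited log2-transformed normalized counts of 20 libraries, with the deposited log2 values running from -2.31 to 18.97. The transformation is not given in the sources used here, and counts were taken as 2 to the power of each value. Per the labels, RNA was extracted with an RNeasy kit, libraries were made with the KAPA mRNA HyperPrep kit and sequenced on an Illumina instrument. The submitters' processing notes name Trimmomatic 0.36, STAR 2.5.2a, RSEM 1.2.31, DESeq and DESeq2, and the build GRCm38. The strand setting is not given in the sources used here, so reads of Gli1, Gli2, Gli3, Hhip, Boc and Gas1 cannot be told apart from those of genes annotated across their exons on the opposite strand, such as Arhgap9 for Gli1. The authors tested with DESeq2, which needs counts; limma 3.58.1 in R 4.3.3 was used here in its place (lmFit, then eBayes with its trend option, genotype as the only factor, 20 hearts). Genes entered when their normalized count averaged 10 or more, which left 15304. Benjamini-Hochberg adjusted P-values under 0.05 were called. P-values measure the spread between hearts, each a separate library.

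GENCODE M39 gave 44565 gene names and the exon lengths, and RefSeq on GRCm38.p6 gave coordinates and promoter windows, for 7 of 9 members. Each marker list was scored by its mean log2 value. Correlations are of residuals from the genotype means. Genes were named by a rule: the members, the ligands, Sufu, Dyrk1a, every called gene of the wider list, and the 5 genes most like Gli1, Ptch1 and Hhip. A further gene that the rule names is not reported here. The members, lists and rules were chosen with earlier results of these data known. The fit was first tested on simulated data. Other filters, normalizations, variance models, weights, lane and left-out hearts were tried. The other steps used pandas 2.3.3, scipy 1.17.1 and numpy 2.4.6 under Python 3.11.15. Columns given to no sample numbered 0.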

Additional observations from a re-analysis of the deposited data

Results flagged for a closer look

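In 6 of 27 combinations of a member and a genotype, 1 heart stood apart from the others of its genotype by Dixon's criterion at 95%, which chance alone meets in about 1 in 20 groups. Since the members vary together, these are not separate events. Library 7, a Dp1Tyb heart, was the lowest of its genotype for Boc (9.13, with the next heart at 9.46), Gli1 (6.12, next 6.67) and Hhip (6.33, next 7.29). It was also the Dp1Tyb heart with the lowest lung and foregut marker level, at 5.20. Without it the differences of Dp1Tyb from WT were 0.134 for Boc, 0.151 for Gli1 and 0.295 for Hhip, with none past the threshold.

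Library 19 was the highest WT heart for Ptch1 (10.34, next 10.14) and library 15 the highest Dp1TybDyrk1a+/+/- heart for Ptch1 (10.23, next 9.98). They had the highest marker levels of all hearts, at 5.91 and 5.71. Library 3 was the highest Dp1Tyb heart for Gli3 (10.14, next 10.02), with a marker level of 5.62.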

How the results depend on the processing

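No member was called with all hearts or with 20 single hearts left out in turn, and of 267 member differences under the other settings 250 kept their direction and side of the threshold. With quality weights per heart 1 member was called between the duplication genotypes, Hhip, and the wider list had 5, 2 and 8 calls in place of 2, 1 and 0, while 9.29%, 2.23% and 8.15% of all genes were called. Weights also turned Cdon in Dp1Tyb compared to WT to -0.0045, and Ptch1 and Gas1 between the duplication genotypes to 0.037 and 0.067. Quantile normalization turned Gas1 there to 0.0088, and centring turned Gli3 in Dp1TybDyrk1a+/+/- compared to WT to 0.0071. With the lung and foregut covariate, 7 members turned above 0 in Dp1TybDyrk1a+/+/- compared to WT, with Boc at 0.026, Cdon at 0.018, Gas1 at 0.037, Gli2 at 0.100, Gli3 at 0.075, Gli1 at 0.048 and Hhip at 0.037. Between the duplication genotypes Cdon was then -0.015, Gli1 -0.047, Gli2 -0.098 and Gli3 -0.061, and 4 genes of the wider list were called (Cep290, Mgrn1, Ift80 and Arrdc3, named after their values were seen), beside 3.64% of all genes. Of the 36 pairs of members, 8 were positive past the threshold with the markers removed, 23 within lane 3 and 6 within lane 6, which hold 7 hearts each. The cause of these changes was not tested.

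With single hearts left out, the wider list had 2 to 5 calls in Dp1Tyb compared to WT, 5 of them without library 15 (Dhh, Ift80 and Cc2d2a in addition, beside 6.27% of all genes), and 1 and 0 calls in the other comparisons. Differences of Dp1Tyb from WT that turned ran from -0.0087 to 0.0136 for Cdon, -0.041 to 0.151 for Gli1, -0.012 to 0.040 for Gli2, -0.0087 to 0.040 for Gli3 and -0.0037 to 0.295 for Hhip. Those of Dp1TybDyrk1a+/+/- from WT ran from -0.070 to 0.0039 for Cdon, -0.103 to 0.019 for Gas1, -0.137 to 0.043 for Gli2 and -0.096 to 0.055 for Gli3. Those between the duplication genotypes ran from -0.045 to 0.033 for Ptch1, -0.058 to 0.064 for Gas1, -0.032 to 0.148 for Gli2 and -0.035 to 0.116 for Gli3. No paired analysis was possible because the labels give no replicate numbers or litters, and the numbers used here only name samples.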
